A study of Oryctolagus cuniculus with 4 samples.

Results

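HOX, T-box and limb patterning homeobox genes encode transcription factors that give an embryonic limb its position and axes. They were read here in the rabbit semitendinosus tendon, a hamstring tendon of the hindlimb, and were chosen by the start of their symbols in the deposited transcript table (HOXA, HOXB, HOXC, HOXD, TBX, MEIS, PBX, PITX, DLX, MSX, LHX, LMX, IRX or SHOX). This gave 77 of 20294 genes. TBXAS1, thromboxane synthase, and PBXIP1, which encodes a PBX-interacting protein, share these letters but encode no HOX, homeobox or T-box factor and are counted apart, which left 75 factors: 36 HOX genes and 39 others, 11 of them T-box genes. The tendons came from 4 New Zealand White rabbits, all female and 193 days old, with 1 tendon per animal and no treatment or altered genotype named in the labels. They form 1 group, so there is no control group and no condition is compared. The labels call the tendons both autografts and intact, and the series title calls them allografts. Each was frozen after muscle was scraped from its surface, and poly(A) RNA of the whole tissue was sequenced, so each value is a mixture over all the cells left in it. Fewer cells of a type and less RNA per cell cannot be told apart in such samples.

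HOX genes lie in 4 clusters, and their order along each cluster follows the order in which they are used from head to tail and, in the limb, from shoulder or hip to digits. Genes at matching places in the clusters form paralogous groups, numbered from the head end. In limb development, groups 9 and 10 are known for roles in the upper segment, group 11 in the middle segment and group 13 in the hand or foot. PITX1 and TBX4 are known for hindlimb identity, TBX5 for forelimb identity and LMX1B for the dorsal side, while MEIS and PBX proteins bind DNA together with HOX proteins. Adult fibroblasts are known to keep part of this positional pattern.

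Levels are length-corrected transcript abundances, expressed against a fixed total per tendon (TPM), which allow genes to be compared within a tendon. Of the 75 factors, 48 had a mean of at least 1 TPM over the 4 tendons (64.0%), against 63.0% of all genes in the table, so the share of factors at this level was near the background. Among genes with a symbol the share was 75.4%. Only 17 factors (22.7%) reached a mean of 10 TPM, where 43.0% of all genes did, and none reached 100 TPM. The median of the mean levels was 2.38 TPM over the factors and 5.65 TPM over all genes. The factors summed to 686, 546, 637 and 598 TPM in tendons 1 to 4, and the HOX genes alone to 373, 281, 328 and 284 TPM. The HOX sum was thus highest in tendon 1 and differed 1.33-fold between the highest and the lowest tendon.

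Libraries held from 19759696 to 30646052 estimated counts. In these libraries 3 counts were worth 0.0979 to 0.152 CPM (counts scaled to a common total, with no correction for length), a limit for counting error alone. Of 10 tenocyte markers, 8 had an entry and all 8 had a mean of at least 1 TPM, while SCX and COMP had no entry. That level was also reached by 63.0% of all genes, and by all 7 endothelial and all 7 macrophage markers. The count thus does not check the tissue label. The tenocyte list summed to 65736 TPM in tendon 1 and 28950 TPM in tendon 4. Skeletal muscle genes, 20 of 25 with an entry, took 0.998%, 3.82%, 1.96% and 2.85% of TPM in tendons 1 to 4.

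The HOX genes of the tendon were led by groups 9 and 10 together with groups 5 and 6. Of 36 HOX genes, 26 had a mean of at least 1 TPM (72.2%), against 63.0% of all genes and 75.4% of genes with a symbol. This share was thus near the background. The leading member was HOXC10 (ENSOCUG00000015176.3, build OryCun2.0, chromosome 4, from 37769262 to 37774396). HOXC10 had 47.7, 56.9, 56.5 and 43.2 TPM, a mean of 51.1 ± 6.79 TPM (SD, n = 4), higher in tendons 2 and 3. HOXA10 (ENSOCUG00000029439.1, chromosome 10, from 11890293 to 11892754) came next, with 73.8, 44.2, 34.9 and 26.9 TPM and a mean of 44.95 ± 20.5 TPM, and was highest in tendon 1 and lowest in tendon 4. These 2 genes of group 10 held 16.3% and 13.9% of all HOX TPM on average. HOXA5 followed at 31.7 ± 3.97 TPM and HOXA9 at 30.4 ± 13.1 TPM, then HOXA6 at 24.4 ± 4.10 TPM, HOXC6 at 23.7 ± 4.68 TPM and HOXD9 at 17.1 ± 3.52 TPM. The ranges of neighbours in this order overlapped. Read within each tendon, HOXC6 exceeded HOXD9 in all 4 tendons, while every other pair of neighbours changed order between tendons.

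**Figure D1:**
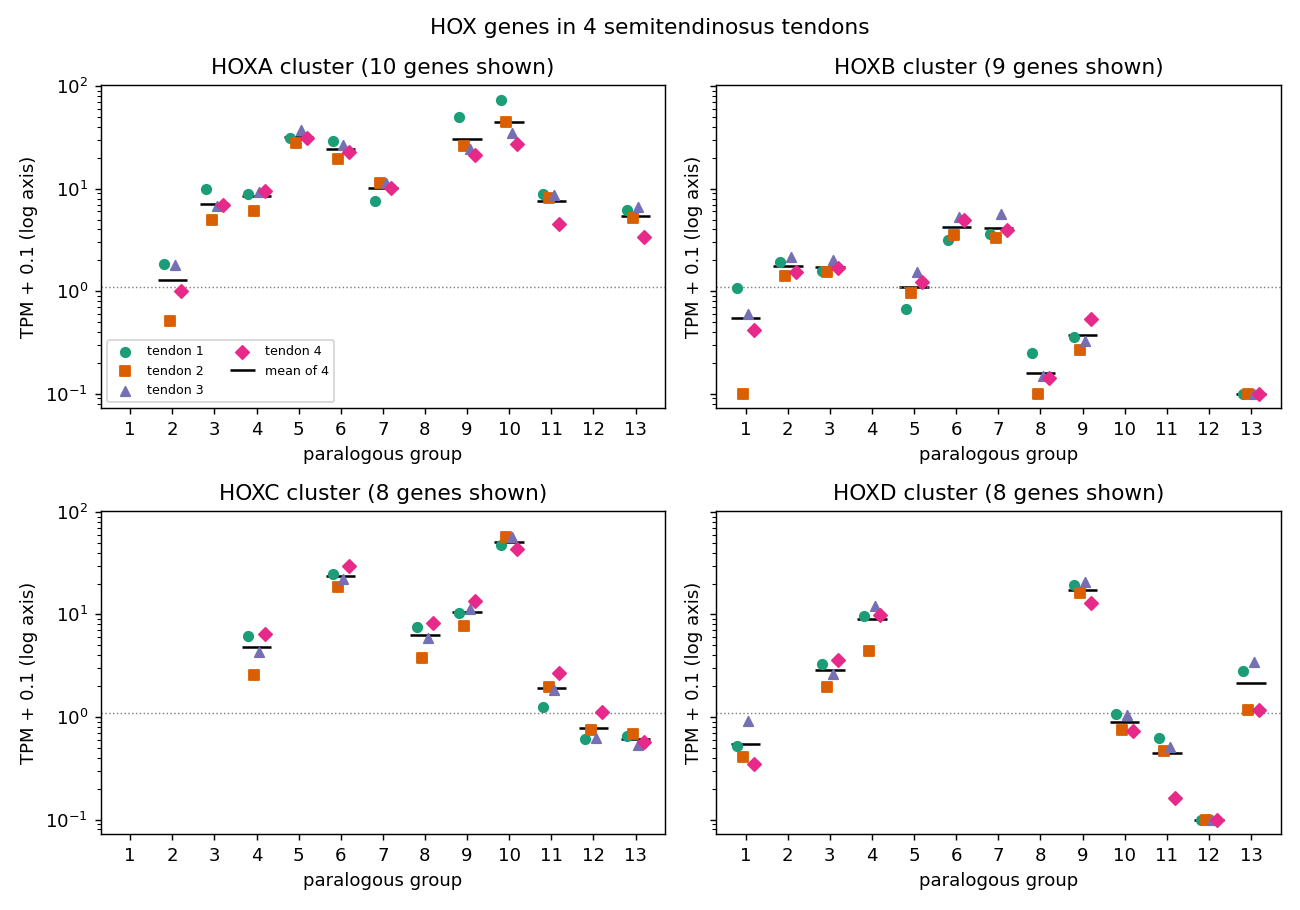
TPM + 0.1 (log axis) of 35 HOX genes by paralogous group in the HOXA, HOXB, HOXC and HOXD clusters, with tendons 1 to 4 as points, their mean as a bar and a dotted line at 1 TPM. HOXA and HOXC peak at group 10 and HOXD at group 9, every HOXB mean is below 5 TPM, and the HOXB13 and HOXD12 points sit at 0 TPM.

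HOXA was the most expressed cluster in TPM, an order that rests on the annotated lengths. Its 11 measured genes, on chromosome 10, all had a mean of at least 1 TPM and summed to 172 ± 38.5 TPM (SD, n = 4), or 53.9% ± 5.24 of HOX TPM. Levels along the cluster were low at HOXA2, high at HOXA5 and HOXA6, lower at HOXA7, high again at HOXA9 and HOXA10, and low beyond. HOXA2, known for hindbrain patterning, had 1.76, 0.417, 1.70 and 0.902 TPM in tendons 1 to 4. HOXA3 had 9.72, 4.85, 6.74 and 6.83 TPM and HOXA4 8.77, 5.97, 9.20 and 9.41 TPM, both lowest in tendon 2. HOXA5, a gene known for roles in axial and lung development, had 30.9, 27.7, 37.2 and 30.9 TPM, and its neighbour HOXA6 had 28.8, 19.5, 26.4 and 22.7 TPM. HOXA5 was highest in tendon 3, HOXA6 in tendon 1, and both were lowest in tendon 2. HOXA7 had 7.50, 11.2, 11.3 and 10.1 TPM, lowest in tendon 1.

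At the other end of the cluster HOXA9 had 49.9, 25.97, 24.2 and 21.4 TPM, with tendon 1 above the other 3. HOXA11, known for forearm and shank patterning, had 8.70, 8.05, 8.61 and 4.45 TPM, and HOXA13, known for digit patterning, had 6.16, 5.09, 6.57 and 3.31 TPM. Both genes were lowest in tendon 4, while tendons 1 to 3 lay near each other.

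HOXC gave 31.8% ± 4.36 of HOX TPM (SD, n = 4), with sums of 98.0, 92.1, 102 and 105 TPM in tendons 1 to 4, the most even of the clusters. Besides HOXC10 it was led by HOXC6, which had 24.5, 18.5, 22.1 and 29.6 TPM. HOXC9, of the same group as HOXA9, had 10.1, 7.56, 11.1 and 13.3 TPM, and HOXC8, known in axial patterning, had 7.48, 3.63, 5.86 and 8.10 TPM. HOXC4 had 6.02, 2.45, 4.18 and 6.37 TPM. These 4 genes were lowest in tendon 2 and highest in tendon 4. HOXC11 had 1.14, 1.86, 1.75 and 2.58 TPM, lowest in tendon 1. HOXC12 had a mean of 0.675 ± 0.243 TPM, and HOXC13, known for roles in hair and nails, had 0.558, 0.587, 0.437 and 0.464 TPM. The HOXC6 model lies inside that of HOXC4 on the same strand, although estimated counts of both genes were whole numbers in every tendon. The HOXC13 model runs over 6 other genes, from 37316468 to 37730050, and its level rests on 5 to 9 estimated counts per tendon.

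HOXD gave 10.2% ± 1.52 of HOX TPM and was mostly HOXD9, which had 19.4, 15.9, 20.5 and 12.7 TPM. HOXD4 had 9.64, 4.27, 11.9 and 9.76 TPM and HOXD3 3.21, 1.88, 2.53 and 3.46 TPM, both lowest in tendon 2. HOXD10, the neighbour of HOXD9, had a mean of 0.799 ± 0.187 TPM, although its paralogs HOXA10 and HOXC10 led their clusters. HOXD11 had 0.523, 0.371, 0.408 and 0.0608 TPM and HOXD12 no count in any tendon. HOXD13, known for digit patterning, had 2.73, 1.06, 3.31 and 1.08 TPM, higher in tendons 1 and 3 than in tendons 2 and 4. In TPM, HOXD13 exceeded HOXD10, HOXD11 and HOXD12 in 4 of 4 tendons. Estimated counts in tendons 1 to 4 were 57, 38, 106 and 38 for HOXD13 and 37, 42, 55 and 40 for HOXD10. In tendons 2 and 4 the order of these genes thus rests on the annotated lengths.

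HOXB was the least expressed cluster, with 4.21% ± 0.930 of HOX TPM and a sum of 13.2 ± 2.82 TPM over 9 genes. HOXB6 had 3.03, 3.44, 5.20 and 4.82 TPM and HOXB7 3.55, 3.18, 5.51 and 3.89 TPM, both highest in tendon 3. HOXB2 had 1.83, 1.31, 2.07 and 1.43 TPM, HOXB3 1.48, 1.45, 1.94 and 1.58 TPM and HOXB5 0.566, 0.872, 1.44 and 1.13 TPM, and these completed the HOXB genes at or above 1 TPM on average. HOXB9 had 0.272 ± 0.113 TPM, far below its paralogs HOXA9, HOXC9 and HOXD9, whose lowest single value was 7.56 TPM. HOXB1 and HOXB8 had means of 0.449 and 0.0601 TPM, and HOXB13 had no count. The model of UBE2Z, a ubiquitin-conjugating enzyme gene, spans the HOXB cluster on the opposite strand.

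Within each tendon HOXC exceeded HOXB, HOXA exceeded HOXD, and groups 9 and 10 exceeded groups 11 to 13. The summed TPM of groups 9 and 10 was 9.90, 8.52, 6.84 and 9.09 times that of groups 11 to 13 in tendons 1 to 4, a mean log2 ratio of 3.09 ± 0.228 (SD, n = 4). HOXC was 8.22, 8.77, 6.02 and 7.62 times HOXB, a mean log2 ratio of 2.92 ± 0.237. HOXA was 6.13, 6.29, 4.16 and 4.93 times HOXD, a mean log2 ratio of 2.41 ± 0.282. Each of these 3 ratios lay above 1 in 4 of 4 tendons. In an exact two-sided permutation test that flips the signs of the log2 ratios, 2 of the 16 sign assignments were as extreme for each, the fewest that 4 tendons allow, so no ratio could reach 0.05. The adjusted p was 0.150 for each over 6 ratios.

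Groups 9 to 13 and groups 1 to 8 were close to each other in TPM. Groups 9 to 13 were 1.47, 1.51, 1.08 and 0.861 times groups 1 to 8, a mean log2 ratio of 0.26 ± 0.387 (exact permutation test, p = 0.375, adjusted p = 0.375). Tendon 4 lay on the other side of 1 from the rest. In CPM, with no correction for length, this mean log2 ratio was 0.84, and the ratio lay above 1 in all 4 tendons. The closeness and the place of tendon 4 thus depend on the annotated lengths. Groups 9 and 10 held 54.1%, 53.8%, 45.2% and 41.7% of HOX TPM in tendons 1 to 4, and groups 4 to 8 held 35.1%, 35.7%, 42.8% and 48.1%. Groups 1 to 3 ranged from 4.16% to 5.61%, and groups 11 to 13 from 4.56% to 6.58%. HOXA took 60.7% in tendon 1 and 48.6% in tendon 4, and HOXC 26.3% and 36.8%.

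**Figure D2:**
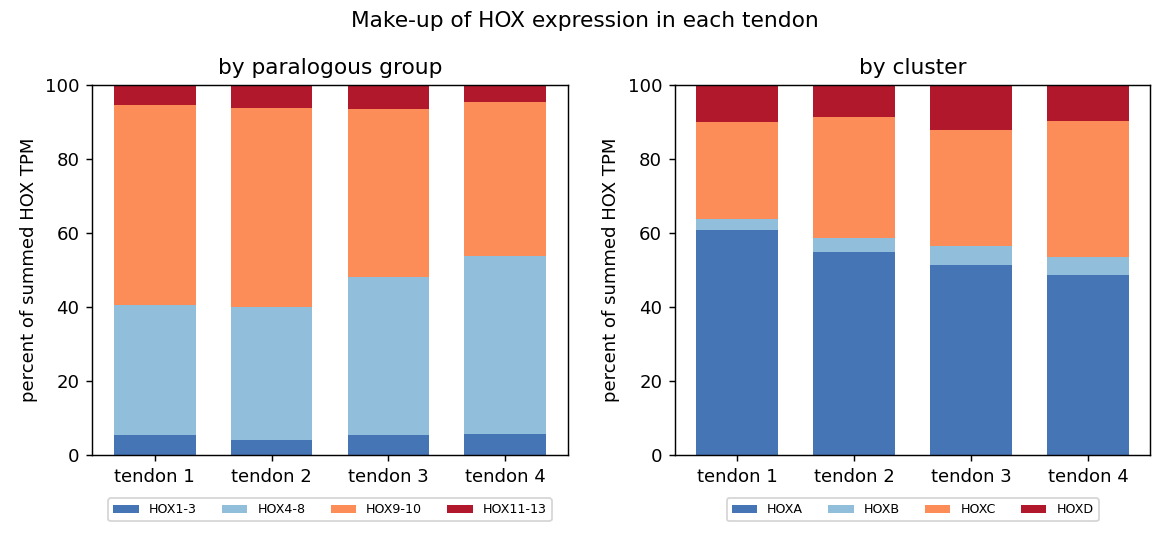
Percent of each tendon's summed HOX TPM (vertical axis) by paralogous group (left) and by cluster (right), as stacked bars for tendons 1 to 4. Groups 9 and 10 take 54.1% and 53.8% in tendons 1 and 2 and 45.2% and 41.7% in tendons 3 and 4, and HOXA is the largest cluster in every bar.

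HOXB4, HOXC5 and HOXD8 had no entry under their symbols, so 36 of 39 HOX genes could be read and the sums leave these out. Only 1 gene without a symbol lay within a HOX cluster, inside the long HOXC13 model. The annotated transcript lengths also differed. For 27 of 36 HOX genes every annotated length was a multiple of 3 bases, as in a coding sequence alone, against 63.4% of all genes. Long models can have such lengths too, as did HOXD10 (3795 bases) and HOXC11 (3222 and 3255 bases). The lengths therefore do not tell which models hold coding sequence alone. All 11 HOXA genes had such lengths, but only 3 of 8 HOXC genes. In CPM, with no correction for length, the mean sum of HOXC lay above that of HOXA. HOXC10 had a mean of 52.4 CPM and HOXA10 of 30.5 CPM. Median mean levels were 4.03 TPM over those 27 genes and 2.05 TPM over the other 9, and the part of the models in the levels was not tested. Antisense RNAs of the clusters were not separated, since the use of strand is not given in the sources used here.

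Among T-box genes, TBX4, the hindlimb factor gene, exceeded TBX5, its forelimb counterpart, in all 4 tendons. TBX4 (ENSOCUG00000010834.3, chromosome 19, from 27645975 to 27679056) had 9.74, 8.44, 9.57 and 5.35 TPM. TBX5 (ENSOCUG00000012715.3, chromosome 21, from 9757707 to 9806915) had 0.539, 0.599, 0.604 and 0.296 TPM, from 18.04 to 37.1 estimated counts per tendon. The ranges did not overlap, and both genes were lowest in tendon 4. TPM + 0.1 of TBX4 was 15.4, 12.2, 13.7 and 13.7 times that of TBX5, a mean log2 ratio of 3.78 ± 0.137 over n = 4 tendons (exact permutation test, 2 of 16 sign assignments as extreme, adjusted p = 0.150). With a pseudocount of 1 TPM the mean log2 ratio was 2.59. PITX1, the other gene known for hindlimb identity, had no entry under its symbol and was not analysed here.

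TBX18 and TBX15, related T-box genes known for roles in mesenchyme and skeletal development, were the most abundant of the family. TBX18 had 74.4, 50.5, 67.8 and 64.01 TPM, and its mean of 64.2 ± 10.1 TPM was the highest of all 75 factors. TBX15 had 51.2, 39.8, 44.7 and 50.2 TPM, a mean of 46.5 ± 5.26 TPM. TBX18 was higher than TBX15 in each tendon, although the ranges overlapped, and both were lowest in tendon 2. TBX2, a repressor gene active in limb buds, had 18.2, 16.1, 18.04 and 29.9 TPM, with tendon 4 above the other 3. Its relative TBX3 had 4.89, 4.78, 4.90 and 4.34 TPM, a narrow range. TBX6, known in early paraxial mesoderm, had 3.89, 2.77, 3.74 and 4.22 TPM. TBX21, a lymphocyte factor gene, had 0.195 ± 0.0533 TPM, and TBX20, a heart factor gene, 1 count in 1 tendon, while TBX19 and TBX22 had none. The 4 lymphocyte markers with an entry, of 6, all had a mean below 1 TPM, although CD3E had 1.35 TPM in tendon 4.

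TBX2 and TBX4 are neighbours on chromosome 19, 38.5 kb apart, and tendon 4 stood apart for both in opposite directions. In CPM normalised by the trimmed mean of M values (TMM), a scale meant for comparing 1 gene between tendons, TBX2 had 26.5, 26.9, 27.2 and 43.5 CPM and TBX4 25.9, 25.8, 26.4 and 14.2 CPM. Tendons 1 to 3 were nearly level for both genes. TBX3 and TBX5, the corresponding pair on chromosome 21, lie 174.9 kb apart, and TBX3 had 6.28, 7.06, 6.51 and 5.59 CPM on this scale.

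**Figure D3:**
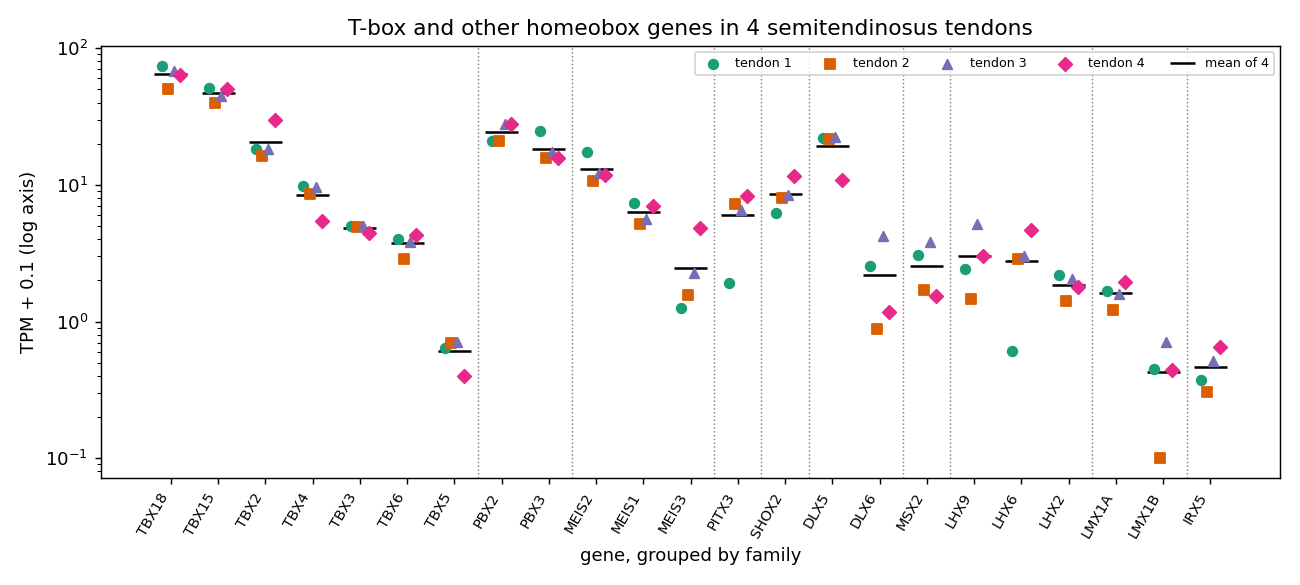
TPM + 0.1 (log axis) of T-box and non-HOX homeobox genes, grouped by family between dotted lines, with tendons 1 to 4 as points and their mean as a bar. TBX18 and TBX15 are highest, TBX4 lies above TBX5 in each tendon, and tendon 1 is lowest for PITX3, LHX6 and MEIS3.

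Genes for HOX cofactors followed at moderate levels. PBX2, which encodes a partner that binds DNA beside HOX proteins, had 20.98, 20.7, 27.9 and 27.7 TPM, and PBX3 had 24.8, 15.7, 17.2 and 15.6 TPM and was highest in tendon 1, while PBX4 had 0.322 ± 0.122 TPM. MEIS2, whose product also binds with HOX and PBX proteins, had 17.2, 10.6, 12.1 and 11.8 TPM and MEIS1 7.32, 5.10, 5.54 and 6.94 TPM. MEIS2 was higher than MEIS1 in 4 of 4 tendons, with a mean log2 ratio of MEIS1 to MEIS2 of -1.03 ± 0.1998 over n = 4 tendons (exact permutation test, 2 of 16 sign assignments as extreme, adjusted p = 0.150). MEIS3 had 1.16, 1.45, 2.18 and 4.74 TPM, with tendon 4 above the others. PBXIP1, whose product binds PBX proteins, had 66.6, 78.2, 85.6 and 91.6 TPM, a higher mean than any factor.

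Several other homeobox genes have known limb roles. DLX5, a gene of the limb ectodermal ridge and of bone- and cartilage-forming cells, had 21.9, 21.5, 22.4 and 10.7 TPM, with tendon 4 below a level shared by the other 3. DLX6 lies 10.1 kb away on chromosome 10 and had 2.46, 0.785, 4.09 and 1.07 TPM from 6 to 28 counts. SHOX2, known for roles in the upper limb segment, had 6.12, 7.92, 8.26 and 11.6 TPM, highest in tendon 4. MSX2, a homeobox gene downstream of BMP signals, had 2.99, 1.59, 3.73 and 1.43 TPM. MSX2, DLX6 and HOXD13 were each higher in tendons 1 and 3 than in tendons 2 and 4, a likeness noticed after the values were seen. It is not particular to them, since DLX5, TBX18, TBX4, HOXA6, HOXD9 and LHX2, among others, had the same order. The share of all genes with this order was not counted. Osteoblasts are also known to express DLX5 and MSX2. Osteoblast marker genes summed to 138, 122, 179 and 607 TPM in tendons 1 to 4, with 4 of 6 at a mean of at least 1 TPM. SPP1 alone carried the rise in tendon 4, since the other 5 genes summed to 79.9, 58.4, 59.2 and 85.3 TPM, and the defining marker SP7 had 0.0866 TPM. Their part in the levels of DLX5 and MSX2 was not tested.

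LMX1B, the dorsal factor gene, had 0.347, 0, 0.605 and 0.344 TPM from at most 8 counts per tendon, close to the limit of detection. Its relative LMX1A, known in the midbrain, had 1.58, 1.12, 1.50 and 1.86 TPM. IRX5 had 0.274, 0.204, 0.411 and 0.556 TPM, IRX2 0.589 ± 0.123 TPM and IRX1 a mean of 0.0418 TPM, so no IRX gene with an entry reached a mean of 1 TPM. LHX2 and LHX9, known for roles in the limb bud mesenchyme, had 2.08, 1.31, 1.94 and 1.68 TPM and 2.32, 1.35, 5.09 and 2.91 TPM. LHX9 was highest in tendon 3, and LHX8 had a mean of 0.870 ± 0.205 TPM. MSX1, IRX3, SHOX and 6 further symbols of these families (TBX1, TBX10, DLX2, LHX3, IRX4 and IRX6) had no entry. Of the 13 symbols without an entry, HOX genes and PITX1 included, 12 are listed in RefSeq's annotation of another rabbit assembly, mOryCun1.1, so a missing entry is not counted as absent expression.

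PITX3 and LHX6 were low in tendon 1. PITX3, which is also expressed in skeletal muscle, had 1.83, 7.13, 6.44 and 8.21 TPM. LHX6, known in interneurons and craniofacial mesenchyme, had 0.505, 2.78, 2.90 and 4.57 TPM. For both genes tendon 1 was below each of the other tendons, by more for LHX6. Its level there rests on 5 estimated counts, and that of PITX3 on 16. Skeletal muscle genes also took their smallest share of TPM in tendon 1, 0.998% against 1.96% to 3.82%. The myogenic list holds 5 regulators of muscle formation and 2 developmental myosin genes, all 7 at a mean of at least 1 TPM. It summed to 68.5, 121, 86.7 and 384 TPM, and its 5 regulators alone to 19.1, 63.1, 47.8 and 113 TPM. MYF6 gave most of the regulator sum, at 13.8, 47.8, 39.4 and 73.8 TPM. Both sums were lowest in tendon 1, and the part of either list in these differences was not tested.

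Of the 75 factors, 21 had counts but a mean below 1 TPM, from 0.00807 TPM (TBX20) to 0.870 TPM (LHX8), and 6 had no count in any tendon (HOXB13, HOXD12, LHX1, LHX5, TBX19 and TBX22). For those 6 genes, 3 counts would be worth 0.110 to 0.350 TPM, depending on length and tendon, so lower levels were not detectable at this depth. HOXB8, LHX4 and TBX20 had at most 3 counts in every tendon. DLX1, DLX3, DLX4, HOXD1 and LHX4 had means of 0.0279, 0.556, 0.245, 0.446 and 0.0523 TPM. Among the 2 genes counted apart, TBXAS1 had 2.02, 1.15, 2.12 and 2.93 TPM.

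A larger share of the factors than of all genes differed 2-fold between tendons. Of the 48 factors with a mean of at least 1 TPM, 18 (37.5%) had a highest tendon at least 2-fold above the lowest in TPM + 0.1, against 20.6% of all genes at that level. From 1 to under 10 TPM this held for 15 of 31 factors (48.4%) and 41.9% of genes. At or above 10 TPM it held for 3 of 17 factors (17.6%), HOXA10, HOXA9 and DLX5, and for 10.7% of genes. Within each range of levels the shares were thus closer to each other and near the background. In TMM-normalised CPM, 18 factors passed 2-fold, against 18.4% of genes. Without tendon 1, 10 of 48 factors (20.8%) and 13.3% of genes passed in TPM.

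Tendon 4 was the lowest for most expressed HOX genes of groups 9 to 13. In TPM this held for 6 of 9 such genes (HOXA9, HOXA10, HOXA11, HOXA13, HOXC10 and HOXD9), where tendon 4 was the lowest for 15.5% of all genes at or above a mean of 1 TPM. In TMM-normalised CPM it held for 7 of 9, HOXD13 added, and for 27.6% of genes. Of the 17 expressed genes of groups 1 to 8, tendon 4 was the lowest for 0 in TPM and for 1, HOXB2, in TMM-normalised CPM. Tendon 2 was the lowest for 13 of them in TPM, where 45.3% of genes were lowest there, and for 9 in TMM-normalised CPM, where 24.0% were. HOXC went another way: 5 of its 6 expressed genes were highest in tendon 4 on both scales, where 32.3% of genes in TPM and 23.0% in TMM-normalised CPM were highest there. Among these 5 are HOXC9 and HOXC11, which belong to groups 9 to 13. All 4 expressed HOXA genes of groups 9 to 13 were lowest in tendon 4 on both scales. The tendon was singled out after these values were seen, and each tendon is 1 animal, so animal and dissection cannot be told apart.

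On the TMM scale HOXA10 had 48.6, 33.5, 23.8 and 17.8 CPM, a 2.73-fold range, and HOXA9 21.6, 12.95, 10.6 and 9.30 CPM, a 2.31-fold range. Both were highest in tendon 1, as were 30.2% of genes on this scale and 38.6% in TPM. HOXA11 had 10.03, 10.7, 10.3 and 5.13 CPM, HOXA13 2.14, 2.04, 2.37 and 1.15 CPM and DLX5 16.2, 18.3, 17.2 and 7.90 CPM, with tendons 1 to 3 together and tendon 4 below. HOXC8 and HOXC9 were lowest in tendon 2, at 9.36 and 14.6 CPM, and highest in tendon 4, at 18.2 and 22.5 CPM.

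Marker sums also differed between these tendons. Cartilage genes, 6 of 6 with an entry and 5 at a mean of at least 1 TPM, summed to 881, 441, 361 and 300.4 TPM, and the 8 tenocyte genes to 65736, 49431, 32351 and 28950 TPM, both highest in tendon 1 and lowest in tendon 4. Single markers went other ways: TNMD, a late tenocyte marker, was highest in tendon 4 (187 TPM) and lowest in tendon 3 (31.7 TPM), COL1A1 and COL1A2 were lowest in tendon 3, and SOX9 and COL9A1 were highest in tendon 3 and lowest in tendon 2. Fast fibre genes, 7 of 9 with an entry, summed to 17.4, 80.5, 23.3 and 2387 TPM, and adipocyte genes, 6 of 8 with an entry, to 249, 404, 548 and 1043 TPM, both highest in tendon 4. All 7 macrophage genes had a mean of at least 1 TPM and summed to 85.2, 67.7, 164 and 204 TPM. The part of these lists in the HOX and T-box differences was not tested.

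**Figure D4:**
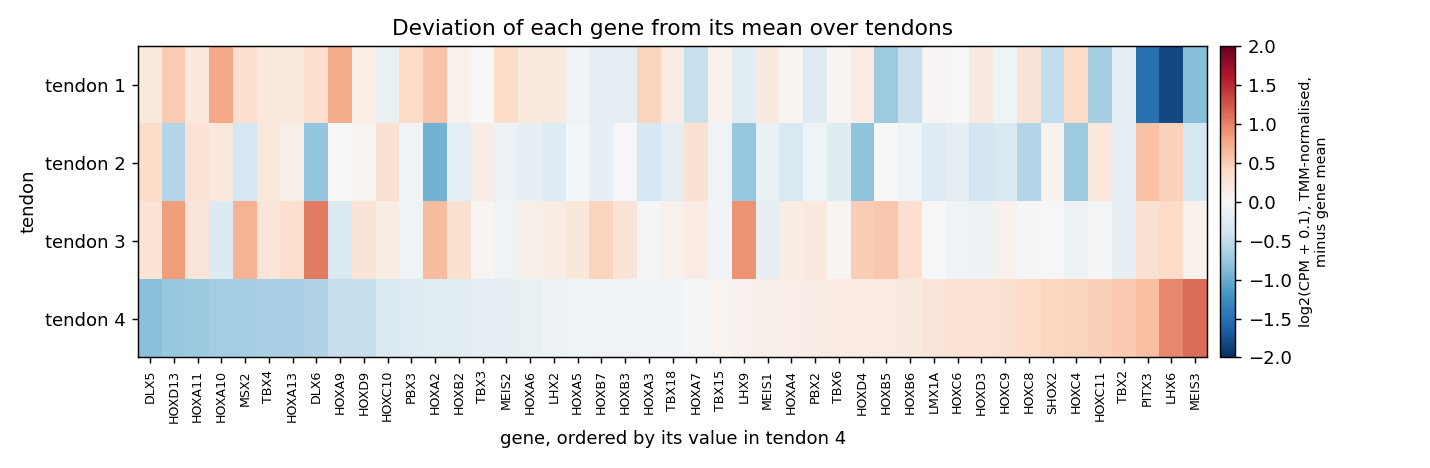
Deviation of log2(CPM + 0.1), TMM-normalised, from each gene's mean over 4 tendons (colour, red above and blue below) for 45 factors with a mean of at least 1 TPM, ordered by the value in tendon 4. DLX5 (-0.84), HOXD13 and HOXA11 (both -0.75) are lowest there and MEIS3 (1.12) is highest, while LHX6 (-1.81) is lowest in tendon 1.

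Other genes of limb patterning were in part expressed. Of 34 limb transcription factor genes with an entry, 24 had a mean of at least 1 TPM, as had 18 of 24 signalling genes and 19 of 20 genes for chromatin regulators of HOX clusters. The same held for 63.0% of all genes and 75.4% of genes with a symbol. The shares of limb factor and signalling genes were thus near the background. PRRX1, a factor gene of limb mesenchyme, was the highest of the first list at 405 ± 85.9 TPM (SD, n = 4), above every HOX gene. ISL1, a hindlimb initiation factor gene of the same list, had no counts. Signalling genes ranged widely: SHH, the ligand of the posterior limb bud, had 0.291 ± 0.166 TPM and FGF4, a ridge ligand, no counts, while the ligand genes BMP2 and BMP4 had 73.2 ± 7.81 and 22.03 ± 4.85 TPM. FGF10, a ligand of the limb bud mesenchyme, stood at 40.01 ± 7.08 TPM and RARG, a retinoic acid receptor gene, at 303 ± 57.9 TPM. Among Polycomb genes, whose products keep HOX genes silent, EZH1 had 37.5 ± 2.56 TPM and EZH2 3.66 ± 1.25 TPM. Of the cofactor partners that are not PBX or MEIS genes, TGIF1 had 22.8 ± 4.48 TPM and PKNOX2 12.9 ± 1.55 TPM.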

How the data were processed

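The authors deposited estimated counts per transcript, unscaled, 1 column per tendon, with an annotated transcript length beside them. Kallisto 0.42.4, bcl2fastq, FastQC and build OryCun2.0 are named in the submitters' processing notes, without roles; filters and strand are not given in the sources used here. TPM were computed from the estimated counts and annotated lengths, not effective lengths, and summed per gene over 21589 transcripts (92 of the 77 genes described, 15 of which had more than 1). Gene sums rounded to whole numbers gave TMM factors (edgeR 4.0.16) and, as an alternative, DESeq2 1.42.0 size factors, in R 4.3.3. Python 3.11.15, numpy 2.4.6, pandas 2.3.3, scipy 1.17.1 and matplotlib 3.10.9 were used.

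Ratios used log2(TPM + 0.1) and an exact sign-flip test with Benjamini-Hochberg adjustment over 6 ratios. Of 8 planned ratios, 2 needed PITX1 or MSX1, which had no entry, and were left out. Levels per tendon are printed for members with a mean of at least 1 TPM and for a short list of limb genes whatever their level, and other members by mean, count or range; the levels of 3 members are not reported here, though counts and sums include them. The members, lists and tests were chosen with earlier results of these data known. The p-values measure only the spread between these 4 tendons. Alternatives were CPM, DESeq2 size factors, lengths shortened by 200 bases, totals without mitochondrial or muscle genes, other thresholds and pseudocounts, and each tendon left out.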

Additional observations from a re-analysis of the deposited data

Results flagged for a closer look

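Dixon's ratio, the gap between an end value and its neighbour over the whole range of 4 tendons, was computed for 67 values: 61 levels and sums in TPM and 6 log2 ratios. It passed the 95% critical value for 5 of them, where chance gives about 3.35. DLX5 (ratio 0.927) was lowest in tendon 4, at 10.7 TPM against at least 21.5 TPM, and HOXA11 (0.848) was lowest there too, at 4.45 TPM against at least 8.05 TPM. TBX2 (0.844) was highest in tendon 4, at 29.9 TPM against at most 18.2 TPM. These 3 genes also passed on log2(CPM + 1) after TMM normalisation, with ratios of 0.853, 0.912 and 0.952 for DLX5, HOXA11 and TBX2. HOXA9 (0.84) was highest in tendon 1, at 49.9 TPM against at most 25.97 TPM, and did not pass on the TMM scale (0.615). The summed level of HOX groups 1 to 8 (0.844) was lowest in tendon 2, at 112 TPM against at least 151 TPM.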

How the results depend on the processing

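The count of factors with a mean of at least 1 TPM stayed between 40 and 55, and that of HOX genes between 20 and 29, over the other units, lengths, totals and thresholds run; with each tendon left out they ran from 47 to 48 and from 25 to 26. The count of factors with a 2-fold range was 18. It was 28 with no filter on low values, and with each tendon left out it ran from 10 (without tendon 1) to 17 (without tendon 3). All 6 ratios kept their direction under each alternative run. With each tendon left out, the mean log2 ratio of groups 9 to 13 to groups 1 to 8 ran from 0.15 to 0.42, groups 9 and 10 to 11 to 13 from 3.02 to 3.19, HOXC to HOXB from 2.85 to 3.03, HOXA to HOXD from 2.32 to 2.52, MEIS1 to MEIS2 from -1.13 to -0.97, and TBX4 to TBX5 from 3.72 to 3.84. With 3 tendons the smallest exact p is 0.25. The summed HOX level of 317 TPM ran from 298 to 329 TPM with each tendon left out, and was 297 TPM with lengths shortened by 200 bases and 357 TPM without mitochondrial genes in the total. With lengths shortened by 200 bases, 9 of 57 single levels and sums moved by more than 1 SD, without mitochondrial genes in the total 5 of 57, and without muscle genes 0 of 57. No paired comparison between groups was possible because the 4 tendons form 1 group, so no groups share replicate numbers. The 6 ratios are paired only in that both values of a ratio come from the same tendon. Depth limits the genes with few counts, such as TBX5, LMX1B, DLX6 and HOXC13, and LHX6 and PITX3 in tendon 1.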
